A study of Mus musculus with 10 samples.

Results

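The loci described here are those of Unc45b, March9 and Clcf1, which held the 3 highest-scoring H3K27me3 peaks of WT CD71+Ter119+ erythroblasts with no overlapping peak in Mtf2-null cells of the same fraction. The 3 lead peaks were chosen by the score of the peak caller, out of 4490 peaks in that list, and all peaks of the 6 lists within 100 kb of the 3 genes were then collected. This gave 17 peaks of 50907 in all. Of the 4490 peaks, 99.4% had no overlapping peak in the Mtf2-null list of the same fraction, so the absence of such a peak was shared by nearly the whole list and was in any case part of the choice.

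H3K27me3 and Mtf2 ChIP-seq was carried out on cells of the e14.5 mouse fetal liver (FL), C57Bl/6, sorted into CD71+Ter119-/lo pro-erythroblasts and CD71+Ter119+ erythroblasts, the latter labelled CD71+Ter119high, with 500000 cells per sample. H3K27me3 was measured in WT (labelled Pcl2 +/+) and Mtf2-null (Pcl2 -/-) cells of both fractions and Mtf2, also called Pcl2, in WT cells of both fractions, each against IgG of its fraction and genotype. Each condition had 1 list, although the methods state replicates of 2 and do not say whether these were pooled, so no spread between replicates could be given and every value below describes these libraries. The deletion was constitutive, in mice derived from targeted ES cells, and the embryos lacked Mtf2 in all tissues. The sorted fractions could not be checked against marker genes, because the peak lists hold no expression.

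H3K27me3 is the mark that Polycomb repressive complex 2 (PRC2) places on histone H3 at silent developmental genes. PRC2 gathers at CpG islands, stretches rich in unmethylated CpG that overlie many promoters, and Mtf2 is a PRC2 subunit that binds CpG-containing DNA and helps bring the complex there. The products of the 3 genes are unlike: Unc45b encodes the chaperone that folds myosin in striated muscle, March9 a membrane-bound ubiquitin ligase that removes proteins from the cell surface, and Clcf1 a cytokine of the IL-6 family that acts through the CNTF receptor and gp130.

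The sequences under the 3 summits differed in kind. The following stretches of 300 bases each were read from NCBIM37, the assembly of mm9, on the + strand, as the stretch nearest to each summit that holds no annotated UTR, and all 3 contained the summit. They are shown because the CpG content and the repetition described below can be seen in them, and capitals mark each CpG. The Unc45b stretch is chr11:82744594-82744893 and lies in an intron, the March9 stretch is chr10:126496511-126496810, all coding sequence of exon 1 on the opposite strand, and the Clcf1 stretch is chr19:4214638-4214937 in an intron.
Unc45b: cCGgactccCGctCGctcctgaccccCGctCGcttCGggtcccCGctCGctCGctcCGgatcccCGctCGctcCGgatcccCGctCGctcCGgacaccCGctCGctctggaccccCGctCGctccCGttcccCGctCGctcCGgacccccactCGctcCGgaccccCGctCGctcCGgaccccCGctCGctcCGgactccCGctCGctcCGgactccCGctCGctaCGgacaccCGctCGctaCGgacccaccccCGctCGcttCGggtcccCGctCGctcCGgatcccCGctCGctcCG
March9: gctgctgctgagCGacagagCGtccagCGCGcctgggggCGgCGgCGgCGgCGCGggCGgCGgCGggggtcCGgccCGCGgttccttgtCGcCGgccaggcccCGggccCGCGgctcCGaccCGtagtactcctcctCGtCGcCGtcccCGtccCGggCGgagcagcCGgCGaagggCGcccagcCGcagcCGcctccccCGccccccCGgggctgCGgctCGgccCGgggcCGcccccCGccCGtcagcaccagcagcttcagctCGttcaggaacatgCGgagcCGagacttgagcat
Clcf1: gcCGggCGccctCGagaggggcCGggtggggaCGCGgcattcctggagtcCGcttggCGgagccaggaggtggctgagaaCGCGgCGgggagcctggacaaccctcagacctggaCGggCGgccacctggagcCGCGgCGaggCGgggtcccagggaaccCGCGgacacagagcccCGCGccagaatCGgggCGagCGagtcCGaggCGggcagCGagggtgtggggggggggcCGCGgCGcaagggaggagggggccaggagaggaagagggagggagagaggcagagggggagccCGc
The stretches held 50, 45 and 31 CpG. The Unc45b stretch was made of short units that follow each other with small changes, whereas the March9 and Clcf1 peaks had no comparable self-identity at any shift, as described further on. The commonest unit of 17 bases, printed with its CpG in capitals, was
Unc45b unit: ggaccccCGctCGctcc

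The Unc45b peak had the highest score of the list by a wide margin. It covered chr11:82743182-82747320, a length of 4139 bp, and held 517 tags. It had a score of 3015.59, a fold enrichment of 21.25 as given by the caller and an FDR of 0%. The score is −10 log10 of the peak's p, and it was 2.73 times that of March9 and 44.1 times the median of the list, which was 68.4. The list had quartiles of 25 and 61 tags, of 722 and 1461 bp in length, and of 6.74 and 10.3 in fold enrichment. The tag count had a 95% Poisson interval of 473 to 564, which covers counting error only, since amplified tags are not independent molecules.

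The March9 and Clcf1 peaks were close to each other in score. March9 had 214 tags (186 to 245) over 2519 bp at chr10:126495787-126498305, with a score of 1105.13 and an enrichment of 21.34-fold. Clcf1 had 249 tags (219 to 282) over 3457 bp at chr19:4213474-4216930, with a score of 1046.90 and an enrichment of 20.54-fold. Just outside the choice lay a peak at Pou3f3, a POU-domain transcription factor gene, with 226 tags and a score of 910.43, and a peak at Zswim5 with 176 tags and a score of 856.74. Scores thus fell by small steps from March9 downwards, and the step from Unc45b to March9 was the exception.

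The tag density set Unc45b apart less than the score did. It was 125 tags per kb at Unc45b (95% Poisson interval 114 to 136), 85.0 at March9 (74.0 to 97.1) and 72.0 at Clcf1 (63.4 to 81.6), against a median of 35.6 in the list. The ratio of Unc45b to March9 was 1.47 in tags per kb and 2.42 in tags. Against the tags that a uniform genome of the stated effective size would place in each interval, the 3 peaks held 11.2, 7.63 and 6.47 times as many. In the caller's fold enrichment, a different measure, the 3 peaks did not differ by more than 1 unit, and ranked 25, 19 and 27 in the list.

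**Figure D1:**
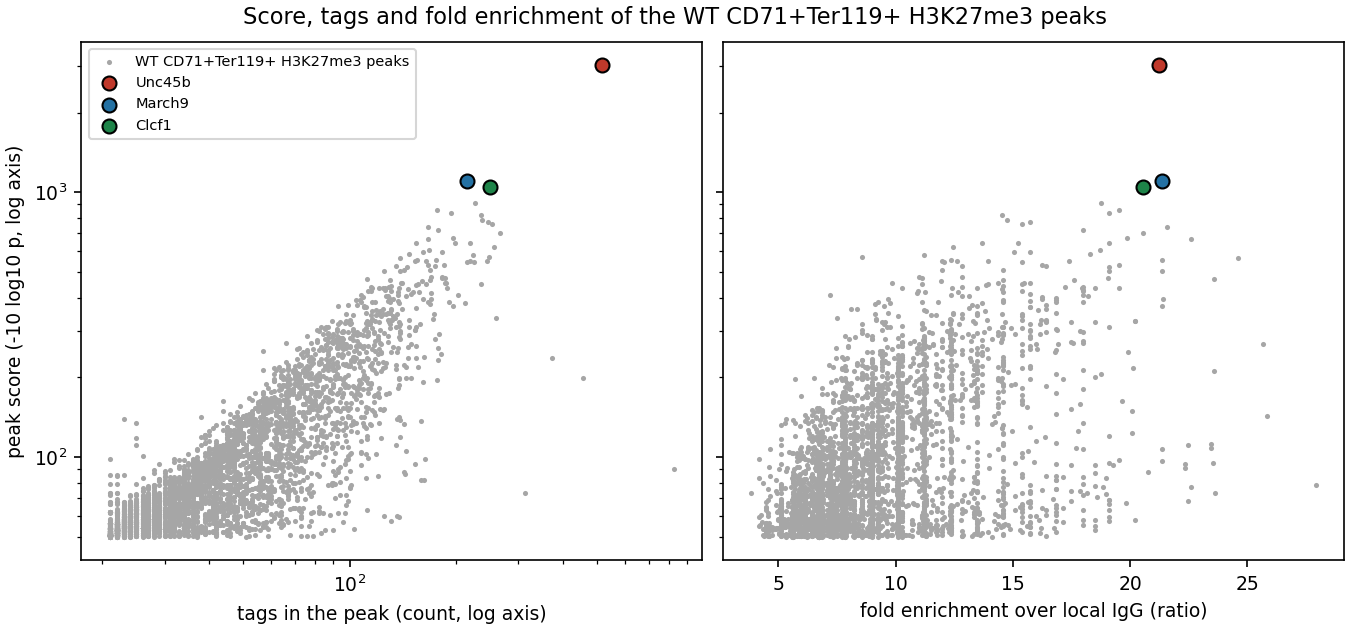
Score of the 4490 WT CD71+Ter119+ H3K27me3 peaks against tags per peak (left) and against the caller's fold enrichment (right). All axes but that of fold enrichment are logarithmic. Grey points are peaks and coloured points the 3 lead peaks. Unc45b, at 517 tags and a score of 3015.59, stands alone at the top, while its fold enrichment of 21.25 lies next to those of March9 and Clcf1.

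Other measures put other peaks first. By tags, the leading peak lay near Gm17379 on chromosome X with 825 tags over 14032 bp and a fold enrichment of 5.03, followed by Unc45b and by a peak near Rhou with 456 tags. By tags per kb, peaks near Dock2, a gene of leukocyte migration (164 tags per kb, fold enrichment 4.18), and Lphn3 (139 tags per kb, fold enrichment 5.31) came before Unc45b. Both of these also lay in repeated sequence, as did Unc45b, which had a fold enrichment of 21.25. The bearing of repetition on these values was not tested. By fold enrichment, the leading peaks were near Grpr (27.90), 8030462N17Rik (25.83) and Gdf11 (25.67), with 31, 50 and 97 tags.

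The Unc45b peak did not lie at a promoter of a coding transcript. Its summit, at position 82744744, was 20.0 kb from the nearest TSS of a coding Unc45b transcript. The peak lay within the gap of 4270 bp between neighbouring coding exons of Unc45b, beginning 118 bp after the exon on its left and ending 13 bp before the exon on its right, and so filled 96.9% of that gap. TSS of processed Unc45b transcripts without coding sequence were nearer, the closest 2.28 kb from the summit. Another of these lay inside the lead peak, 0.924 kb from the summit of a Mtf2-null CD71+Ter119-/lo peak described further on. The lincRNA gene Gm12575 (82738405 to 82746884, on the opposite strand) began within the peak and the array described next, 2.14 kb from the summit.

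This intron holds a tandem array of the 17-base unit. The array, taken as the stretch in which at least 50% of the bases equal those 17 bases further on in every window of 100 bases, ran from 82743588 to 82746933, a length of 3346 bp or 80.8% of the peak. Within it 185 units with at most 4 differences from the commonest unit could be laid end to end, which covered 94.0% of its bases. The commonest unit occurred 36 times without a difference, and these were all of its exact occurrences in the assembly on either strand. A shift of the whole peak against itself by 17 bases, or by a multiple of 17 up to 119, gave between 65.6% and 70.8% identical bases, while the other shifts up to 120 bases gave a median of 33.8%.

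**Figure D2:**
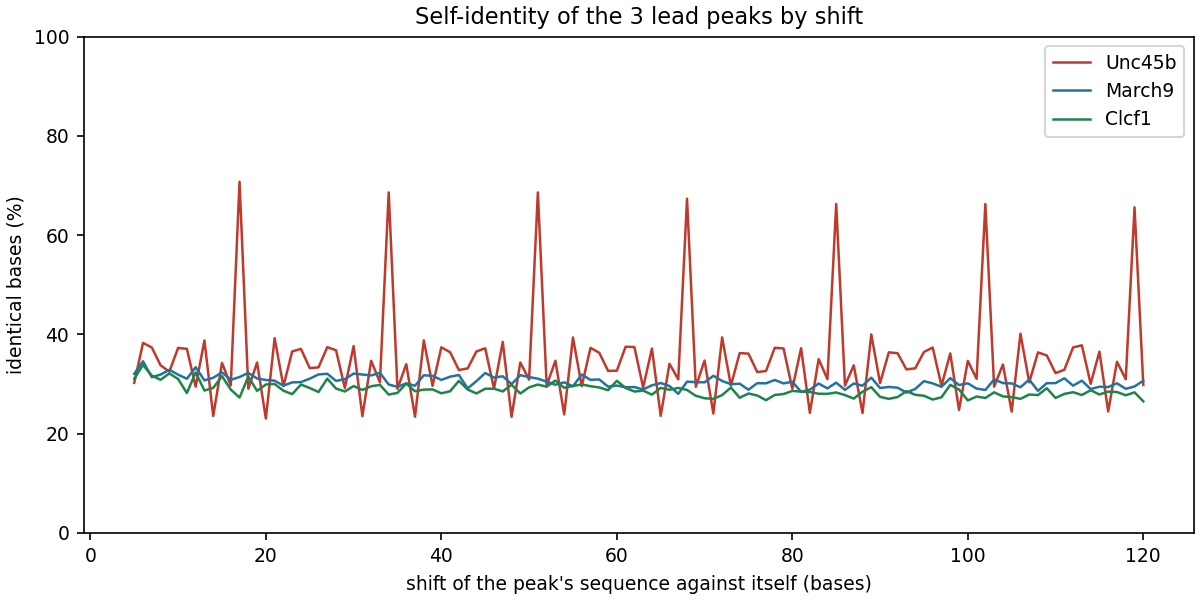
Identical bases (%) when the sequence of each lead peak is shifted against itself by 5 to 120 bases, with a line for each gene. Unc45b rises to between 65.6% and 70.8% at each multiple of 17, and March9 and Clcf1 reach at most 34.6% at every shift drawn.

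The array was dense in CpG throughout, and the unit carries 2 CpG. It held 486 of the 493 CpG of the peak, 145 per kb, with a GC content of 75.1% and a ratio of observed to expected CpG of 1.25. The 406 bp of the peak before the array had 9.85 CpG per kb and the 387 bp after it 7.75. In windows of 100 bases, 32 windows in a row had 12 or more CpG at Unc45b. In the 1 kb at the summit, the observed to expected ratio of 1.30 was the highest of all 4490 peaks, of which the median was 0.579.

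March9 and Clcf1 had ratios of observed to expected CpG of the kind found at many peaks of the list. In the 1 kb at the summit, March9 had 127 CpG per kb with a ratio of 0.821 and a GC content of 78.6%, and Clcf1 had 102 CpG per kb with a ratio of 0.794 and 72.3% GC, against 153 CpG per kb at Unc45b. All 3 summits passed a common definition of a CpG island, a GC content of at least 50% and a ratio of at least 0.6, and so did 47.6% of the list. March9 and Clcf1 ranked 1020 and 1173 in the ratio, but 167 and 723 in CpG per kb and 11 and 343 in GC content. Unc45b ranked 1, 18 and 50 in these 3 measures, so the contrast depended on the measure. Over the whole Clcf1 peak the ratio was 0.544, below that limit, and the peak reached beyond the CpG-rich stretch on either side.

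**Figure D3:**
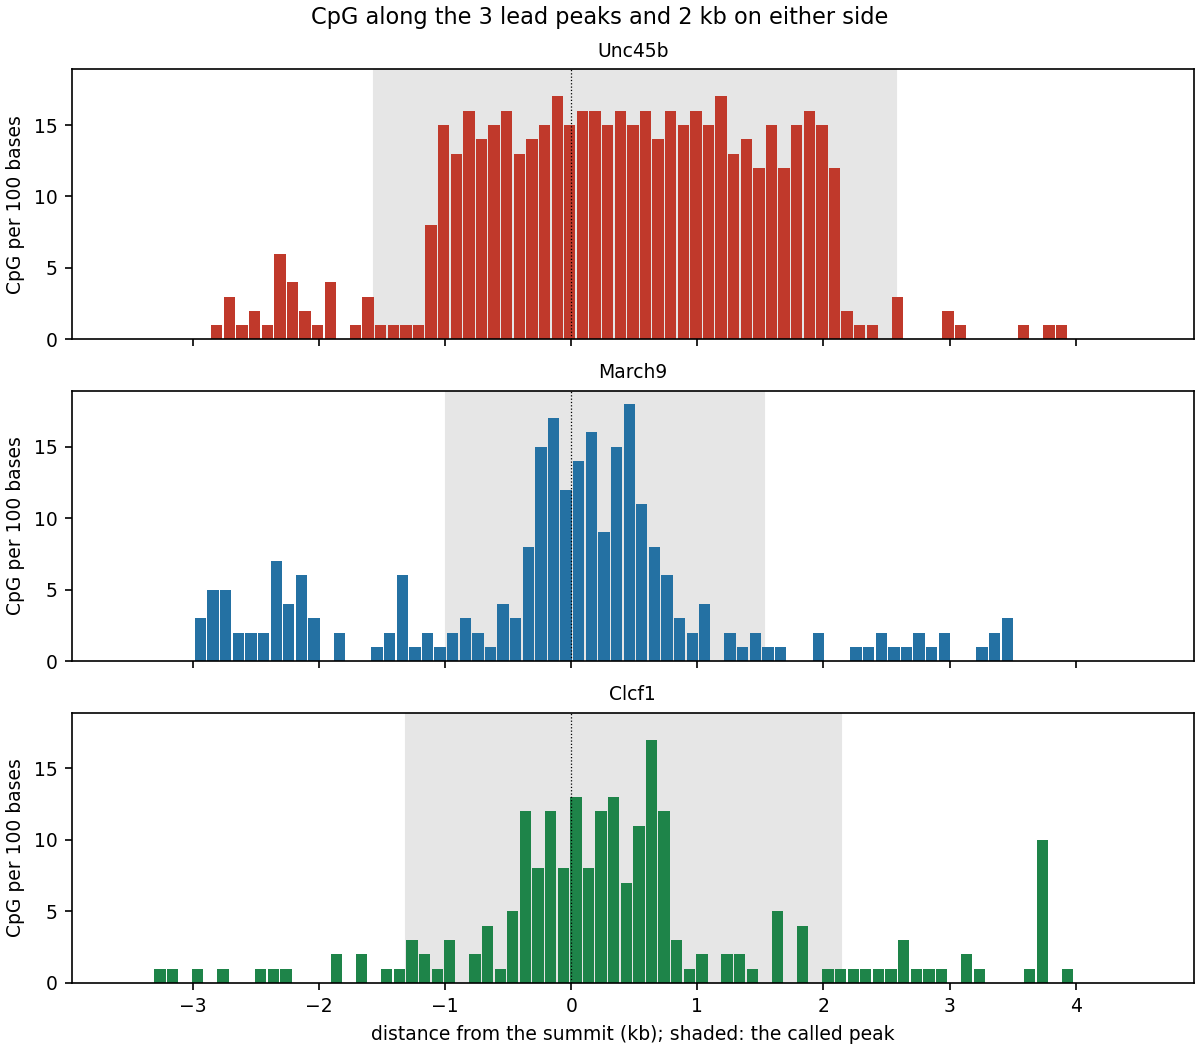
CpG per window of 100 bases along each lead peak and 2 kb on either side, by distance from the summit in kb, with the called peak shaded. The dense stretch fills 32 windows in a row at Unc45b and is shorter at March9 and Clcf1, where 7 windows each reach 12 CpG.

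The trinucleotide GCG, counted on both strands as GCG or CGC and overlapping CpG by its letters, was also frequent. The 1 kb at the summit held 107 per kb at Unc45b, 87.9 at March9 and 72.9 at Clcf1, against a median of 32.0 in the list, and the 3 peaks ranked 216, 591 and 1037. The matches describe the sequence and say nothing of binding there.

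Tandem repetition was rare in the list. A highest self-identity of at least 50%, at shifts of 7 to 200 bases, was found in 99 of 4490 peaks, or 2.20%, with Unc45b among them at 70.8% and March9 and Clcf1 outside at 33.4% and 32.3%. Their median score was 60.1, below that of the list, and 31 of them had a score above the list's median. The highest score among the other 98 was 190.72 and the most tags 163. Only 4 of the 99, Unc45b among them, also passed the CpG island definition, and the other 3, near Gm4450, Pkdcc and Gsdmc, had scores between 55.3 and 99.1.

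**Figure D4:**
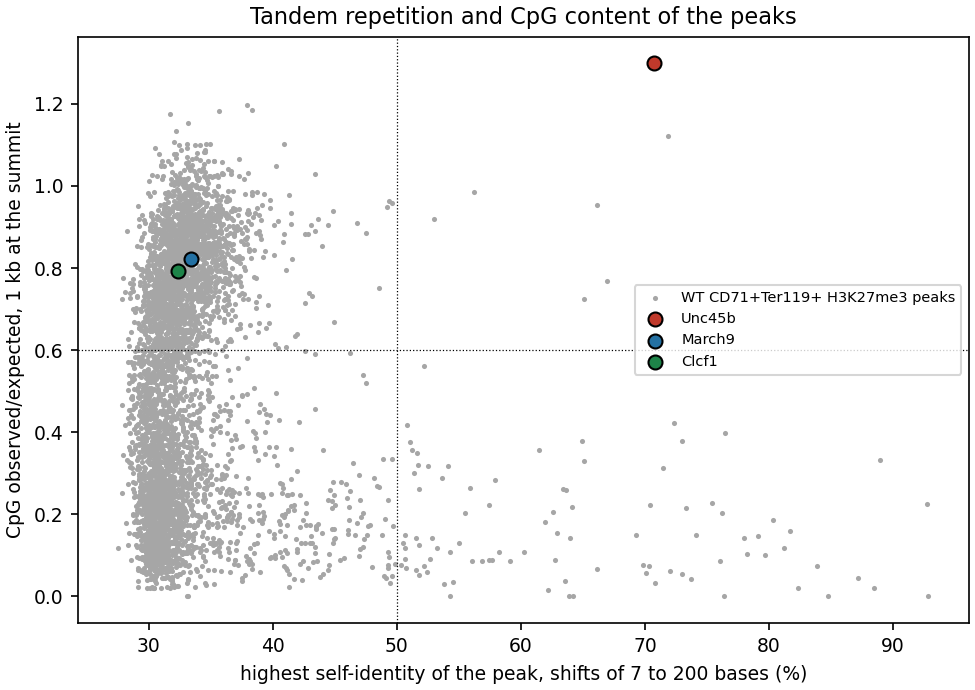
Ratio of observed to expected CpG in the 1 kb at the summit against the highest self-identity (%) of each of the 4490 WT CD71+Ter119+ H3K27me3 peaks, with the limits of 0.6 and 50% as dotted lines. Unc45b, at 1.30 and 70.8%, lies apart at the top right, and March9 and Clcf1 lie within the main body of peaks. Some points above both lines have a GC content under 50% and do not count as CpG islands.

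Repetition bears on how tags are placed, and the values that describe this were as follows. Of the words of 25 bases (the tag size in the file headers) in the Unc45b peak, 50.9% occurred once in the assembly, while 99.5% occurred nowhere outside the peak. Repeats of these words were thus nearly all copies within the same array. At March9 100% and at Clcf1 97.0% of the words occurred once, and the median of the list was 98.8%. Whether tags with several matches were kept, and in which copy they were placed, is not given in the sources used here. Nor is it given which sequences were masked before alignment, or how long the reads were. Distinct words made up 61.6% of the Unc45b peak at 25 bases, 75.1% at 36 and 88.1% at 50. The part of the repetition in the tag count at Unc45b was not tested.

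At Unc45b the lead peak was alone among the 8 neighbouring protein-coding genes. The WT CD71+Ter119+ list held no other peak within 100 kb, and the next peak of that list was 475 kb away. The neighbours on either side, Nle1, a gene of ribosome assembly, and Slfn5, of the Schlafen family, had no peak of any list in the 5 kb around a TSS, and the same was true of the other 6. Over all protein-coding genes, 11.5% had a WT CD71+Ter119+ peak in that window. A WT CD71+Ter119+ peak within 100 kb was found for 43.9% of 22380 protein-coding genes.

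March9 lay in a run of marked neighbours. The same list held 7 peaks within 100 kb of the gene, the lead peak included, a number reached by 265 of 22380 genes, or 1.18%. The choice fixed the lead peak beforehand, so this comparison with all genes is uneven. No such share is given for peaks at an FDR of at most 5%. Apart from the lead peak they had 22 to 111 tags, fold enrichments of 7.86 to 14.0 and scores of 52.6 to 307.09. Their FDR ran from 2.29% to 30.65%, and 4 of the 6 were over 5%, so that 3 of the 7 peaks remained at an FDR of at most 5%. A peak of 28 tags began 60 bp beyond the end of the lead peak, upstream of March9. The strongest neighbour lay at the start of Agap2, which encodes a GTPase-activating protein, with 111 tags over 1925 bp and 57.7 tags per kb. Other peaks lay at Ctdsp2, a phosphatase gene (29 tags), over the overlapping ends of Fam119b and Mettl1, both methyltransferase genes (45 tags), and over Cyp27b1, the enzyme that makes active vitamin D (46 and 22 tags). Of the 10 neighbours, 6 had a peak in the 5 kb around a TSS: these 5 and Cdk4, a cell cycle kinase gene, whose window reached the lead peak of March9 and the peak beside it. This compares with the 11.5% of all genes, but neighbouring genes can share a peak. Of the 6 neighbouring peaks, 3 passed the CpG island definition.

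The Clcf1 peak covered the TSS of the gene, with the summit 0.194 kb from the nearest annotated TSS and 0.483 kb from the nearest TSS of a coding transcript. It reached over the promoter, the first exons and the introns between them. The same list had 1 other peak within 100 kb, of 21 tags, a score of 50.21 and an FDR of 33.77%. It lay 10.6 kb away and 3.82 kb from the TSS of Pold4, a subunit of DNA polymerase delta. Of 14 neighbours, 1, Pold4, had a WT CD71+Ter119+ peak in the 5 kb around a TSS, a share near the 11.5% of all genes. At March9 the summit was 0.462 kb inside the gene, in its first exon.

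**Figure D5:**
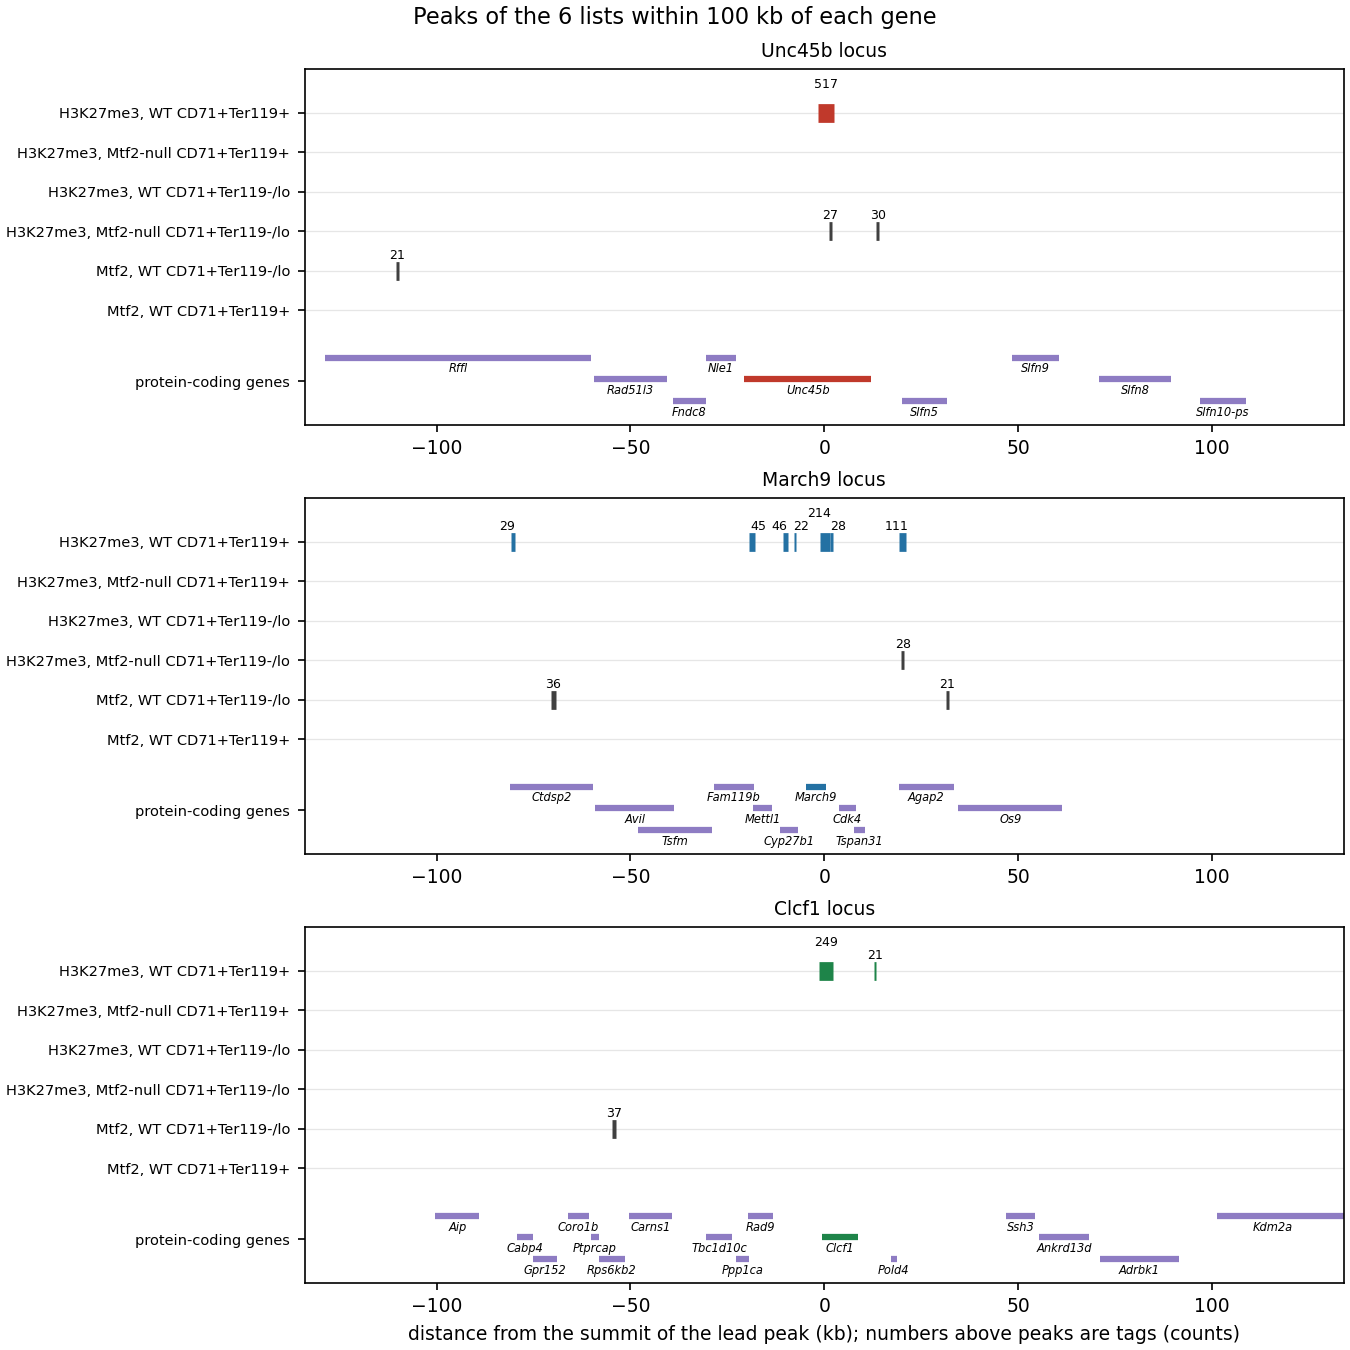
Peaks of the 6 lists around Unc45b, March9 and Clcf1, drawn to scale by distance from the summit of the lead peak in kb, with the tags (counts) above each peak and protein-coding genes below. The WT CD71+Ter119+ list has 1, 7 and 2 peaks, and the Mtf2-null list of that fraction and the Mtf2 list of that fraction have none.

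No peak of the Mtf2-null CD71+Ter119+ list lay within 100 kb of any of the 3 genes, and 31.3% of all genes had such a peak. The choice required that no peak of that list overlapped the lead peaks, so part of this absence was fixed beforehand. In that list 0 of 5791 summits passed the CpG island definition, so the absence of such peaks was shared by the whole list. The nearest peaks of that list were 460, 389 and 143 kb from the lead peaks. The Mtf2-null library was the deeper, with 67169672 unique tags against 30054186 in WT. At the average background of the genome, the whole interval of the Unc45b peak would hold 103 tags in the Mtf2-null library. Counted over the whole interval, 150 tags would reach the p cutoff of 1e-05, and the enrichment seen in WT would give 1155. For March9 the 3 numbers were 62.7, 100 and 478, and for Clcf1 86.0, 129 and 557. These whole-interval counts are not the caller's own limit, since a shorter stretch can be called with fewer tags. In the Mtf2-null CD71+Ter119-/lo list, 27 tags over 696 bp were called within the Unc45b interval, where the whole-interval count would be 93. The lists give no tag count where no peak was called, so the level in Mtf2-null cells is known only to have missed the cutoff set by the local background. Less of the mark in each cell, a smaller share of marked cells and a difference between the libraries cannot be told apart.

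In WT CD71+Ter119-/lo pro-erythroblasts no H3K27me3 peak lay within 100 kb of the 3 genes either, against 36.5% of all genes. That library had 18945784 unique tags. At the same enrichment the intervals of Unc45b, March9 and Clcf1 would have held 326, 135 and 157 tags. Over the whole intervals, 56, 39 and 49 tags would reach the cutoff at the average background, and shorter stretches could be called with fewer. The nearest peaks of that list were 139, 130 and 111 kb away. Of all summits in the WT CD71+Ter119-/lo list, 4.33% passed the CpG island definition, against 47.6% in the WT CD71+Ter119+ list. The scarcity of peaks at such summits was thus shared by the whole list and not particular to these loci. The difference between fractions was not tested, having 1 list each.

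The Mtf2-null CD71+Ter119-/lo list, in contrast, had a peak within the Unc45b array. It covered chr11:82745966-82746661, a length of 696 bp, with 27 tags, a score of 60.26, a fold enrichment of 6.38 and an FDR of 100%, the FDR of every peak in that list. Scaled to tags per kb for 1000000 unique tags, it held 1.05 over its 696 bp. The WT CD71+Ter119+ peak held 4.16 over its 4139 bp, a ratio of 3.97. The intervals, the fraction and the genotype all differ, so this ratio is not a fold difference at the locus. The Mtf2-null peak had a self-identity of 86.5% and 147 CpG per kb. The March9 and Clcf1 lead peaks had no such peak, and 1.87% of the WT CD71+Ter119+ list was overlapped by this list. Of the 99 peaks with tandem repetition, 6 were. By the same measure, 10.7% of the peaks in the Mtf2-null CD71+Ter119-/lo list had tandem repetition, against 2.20% in the WT CD71+Ter119+ list.

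Within 100 kb of the 3 genes the Mtf2-null CD71+Ter119-/lo list had 2 further peaks, and 17.0% of all genes had a peak of it within 100 kb. Near Unc45b, 30 tags lay 13.6 kb from the lead summit. Near March9, 28 tags lay within the Agap2 peak of WT CD71+Ter119+ cells, at 1.07 tags per kb on the same scale against 1.92. These densities are over 705 and 1925 bp, so they too are not of the same interval. Clcf1 had none, and its nearest peak in that list was 1289 kb away.

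Mtf2 itself was not called at any of the 3 lead peaks. In CD71+Ter119-/lo cells, where 78.2% of all genes had a Mtf2 peak within 100 kb, Unc45b had 1, March9 had 2 and Clcf1 had 1, with 21 to 37 tags each. The nearest were 108 kb, 29.9 kb and 52.4 kb from the lead peaks. They lay in Rffl, in Ctdsp2 and Agap2, and in Rps6kb2, which encodes an S6 kinase. In CD71+Ter119+ cells, where 31.2% of genes had such a peak, none lay within 100 kb of the 3 genes. Unique tags made up 34.6% of the CD71+Ter119-/lo Mtf2 library and 39.7% of the CD71+Ter119+ one. The CpG island definition was passed by 2.80% of the summits in the CD71+Ter119-/lo Mtf2 list and 0.452% in the CD71+Ter119+ one. In the WT CD71+Ter119+ H3K27me3 list it was 47.6%, so the lack of Mtf2 peaks at CpG-rich summits was not particular to these loci.

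The wider families of the 3 genes were compared by whether a gene had an H3K27me3 peak of the WT CD71+Ter119+ list in the 5 kb on either side of any TSS, as 11.5% of all protein-coding genes had. In all, 14 of 54 listed genes had such a peak, the 3 lead genes included. Among 24 other genes of myosin chaperones and the striated muscle thick filament, 2 had a peak: Myh7b, a myosin heavy chain gene (48 tags, score 85.8), and Myom1, a gene of the M-band (44 tags, score 149.77). Unc45a, the general paralogue of Unc45b, had none. This share of 8.33% was near that of all genes, and the inclusion of Unc45b rests on TSS of transcripts without coding sequence.

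The other MARCH ligases were marked weakly. Of 10, March8 (29 tags, score 55.2) and March2 (26 tags, score 60.9) had a peak, both far below March9 in score. March8 was also the only gene of the 54 with a peak of the Mtf2-null CD71+Ter119+ list, in which 1.63% of all genes had a peak that near to a TSS.

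Genes of the gp130 cytokines and their receptors were marked in larger number, 7 of 17 apart from Clcf1, or 41.2%. Il11 had 114 tags and a score of 221.24. Lif, a cytokine of the same family, had 46 tags and its receptor gene Lifr 55. The receptor genes Il6ra, with 54 tags, Cntfr and Il11ra1 were also among them, and Cntfr and Il11ra1 share a single peak of 52 tags between them. With Clcf1 included, the 8 genes of this family became 4 at a score of at least 100 and 4 at an FDR of at most 5%. Clcf1 was chosen by its score and is among the 4 at both limits. No share of all genes is given at these limits. The families were described by these counts alone, without a test.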

How the data were processed

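The 10 samples (6 ChIP, 4 IgG) were mapped to conditions from their labels. Per the labels and methods, the authors aligned reads with Bowtie2 2.2.3 to a masked mm9 and called peaks with MACS 1.3.7 against IgG. WT H3K27me3 and Mtf2 share the IgG library of a fraction. Per the file headers, the p cutoff was 1e-05 and the tag size 25. The deposited tag count is the authors' number of tags per peak, not normalized for depth. The deposited score is −10 log10 of p and the deposited FDR is a percent. The deposited fold enrichment is a ratio of ChIP over background that the authors' caller gave. The ChIP libraries held 15669899 to 67169672 unique tags. The mark was taken as H3K27me3 from the sample labels, although the first line describing the series writes H3K4me3.

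Coordinates are 1-based on NCBIM37 with GENCODE M1 genes. Peaks overlapped at 1 shared base. The members, gene lists and sequence measures were chosen with earlier results of these data known. Genes were named if they were members, neighbours with a peak in a 5 kb TSS window or nearest a member, family genes with a peak (1 is not reported here), or nearest to the peaks leading by tags, tags per kb or fold and the 2 lost peaks next in score. CpG values use 1 kb at the summit. Overlaps and repeat measures were tested on simulated intervals and sequences. Alternatives were wider and narrower windows, stricter limits on score (100) and FDR (5%), other rankings and other CpG windows. Sequence was read with pysam 0.24.0, words were counted with numba 0.67.0, tables and intervals were made with pandas 2.3.3, numpy 2.4.6 and scipy 1.17.1 in Python 3.11.15, and figures with matplotlib 3.10.9.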

Additional observations from a re-analysis of the deposited data

How the results depend on the processing

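With 1 list per condition, no value here has a replicate error, and the cutoff that a listed peak had to pass moves with depth. No paired analysis was possible because each condition had 1 list and no test was run.

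The 17 peaks within 100 kb became 38 within 200 kb, 5 with a score of at least 100 and 9 with an FDR of at most 5%. Within 200 kb, 1 peak of the Mtf2-null CD71+Ter119+ list appeared. With the Mtf2-null list of either fraction, 2 of the 3 lead peaks had no Mtf2-null peak. By tag count, tags per kb and fold enrichment the ranks were 2, 3 and 25 for Unc45b, 22, 7 and 19 for March9, and 10, 18 and 27 for Clcf1. Over the whole peak the CpG per kb were 119 at Unc45b, 71.1 at March9 and 52.1 at Clcf1. The 14 family genes with a peak became 7 at a score of at least 100 and 7 at an FDR of at most 5%. The 3 lead genes are among them through the choice, and no share of all genes is given at these limits. Counts moved because each alternative counts fewer or more peaks or bases, and the ranks because each orders the same peaks by another measure.

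Chosen after seeing the data, words of 36 and 50 bases gave 75.1% and 88.1% distinct words in the Unc45b peak against 61.6% at 25 bases, a self-identity of at least 60% left 56 of the 99 repeated peaks, and windows of 200 bases gave an array of 3447 bp. A planned share of repeat-masked bases was not run, because the reference used here marks none.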
